A study of Mus musculus with 12 samples.

Results

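Knockdown of BRG1 was compared with a scrambled siRNA in differentiating C2C12 cells, an immortalized mouse myoblast line that leaves the cell cycle and fuses into myotubes when serum is reduced. The comparison uses 4 of the 12 samples of the series, chosen by their titles: 2 samples given siRNA against BRG1 (siBRG1) and 2 given the scrambled siRNA (siSCR), all collected 18 h after the change to differentiation medium. The other groups of the series are siRNA against BRM (siBRM) at 18 h and all 3 siRNAs at 48 h, again with 2 samples each. Every group carried an siRNA at 100 nM, delivered with Dharmafect3. Cells were kept in RPMI with 20% FBS and then moved to RPMI with 2% HS and ITS, and total RNA was extracted with Trizol. The labels give neither the siRNA sequences nor whether replicates 1 and 2 were separate cultures, so p-values measure the spread between these samples, which may be technical. Effects of the siRNA on its target and on other transcripts cannot be told apart with a single siRNA label per target.

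BRG1, the product of Smarca4, and BRM, the product of Smarca2, are the alternative ATPases of the SWI/SNF complexes, which move and evict nucleosomes at promoters and enhancers. In skeletal muscle cells these complexes are known to be recruited to muscle genes together with MyoD, a transcription factor that starts the muscle programme. MyoD in turn activates myogenin and the genes of the contractile apparatus, cell fusion and the neuromuscular synapse.

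RNA was measured on Illumina mouse BeadChips, on which each probe has a bead-averaged fluorescence signal and a detection p against the negative controls of its own array. A probe was taken as detected at a detection p under 0.05. Both replicate 1 arrays of the comparison lay on a single BeadChip and both replicate 2 arrays on another, so differences were taken within each replicate number. On each BeadChip the siSCR array preceded the siBRG1 array, and position and siRNA cannot be told apart. The replicate 1 arrays were dimmer, with mean unnormalized signals of 513 and 521.6 and 27.33% to 29.72% of probes detected, against 1349 and 1464 and 38.17% to 38.31% in replicate 2. All signals below are normalized and have arbitrary units, and they are compared only within a gene. Of the 8 myoblast and early myocyte markers, 7 were tested and 6 were detected on all 4 arrays (Myod1, Des, Cdh15, Myog, Chrna1 and Ncam1). Msc was at background on all 4, and Myf5 was not among the tested genes. Of markers of other cell types, 1 of 20 osteoblast and chondrocyte genes (Sox9), 2 of 16 adipocyte genes (Pparg and Lpl), 1 of 14 fibroblast and endothelial genes, 1 of 12 leukocyte genes and 2 of 12 neural genes (Nes and Stmn2) were detected on all 4 arrays.

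Smarca4, the targeted gene (chromosome 9 of GRCm38.p6, 21616106 to 21704230), was lower with siBRG1 in both replicates. Its signal was 176 with siSCR and 68.1 with siBRG1 in replicate 1, where the siBRG1 array did not detect it, and 545 and 264 in replicate 2. The log2 difference was -1.37 and -1.05, and the bound set by the detection limit in replicate 1 was at least 1.07-fold lower. The groups overlapped in level, because replicate 2 was brighter for this gene with either siRNA. The mean difference was -1.21 ± 0.86 (SE of limma's fit without a block, n = 2 per group). With the BeadChip as a fixed term, which takes out the shift between replicates, the SE was 0.32. Smarca2, the other ATPase, read 1386 and 1367 in replicate 1 and 630.0 and 703 in replicate 2 with siSCR and siBRG1, which are log2 differences of -0.02 and 0.16.

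Of 10847 tested genes, 6732 were detected on all 4 arrays. A log2 difference of 0.5 or more below siSCR in both replicates was found for 172 of these genes (2.55%), and 114 (1.69%) were above siSCR by as much in both. Without background correction these counts were 98 and 48. Median scaling gave 211 and 82, so the lower genes were 72.0% of both sets together against 60.1% with quantile normalization. The difference had the same sign in both replicates for 4285 genes, of which 1999 (29.7%) were lower and 2286 (34%) higher with siBRG1. Only 17 genes were 0.5 or more apart in opposite directions in the 2 replicates. Across the 6732 genes the differences of the replicates correlated with r = 0.46 and rho = 0.40, a description over genes that are not independent. Their SD was 0.44 in replicate 1 and 0.32 in replicate 2. In level, both siBRG1 arrays lay below both siSCR arrays for 7.12% of the 6732 genes and above them for 7.1%. Within the sets chosen on these same arrays this held for 105 of the 172 and 55 of the 114, which the choice of genes largely fixes.

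No gene passed limma's moderated test at an adjusted p under 0.05 (0 of 10847 genes, 0%). In the fit without a block 128 genes had an unadjusted p under 0.05, and the smallest adjusted p was 1. With the BeadChip as a fixed term these values were 657 genes and 0.818, and with it as a random term 749 genes and 0.254, again with 0 genes called. The differences below are therefore descriptions of 2 pairs of arrays. For the 169 genes named by rule, the SE of the mean log2 difference ranged from 0.36 to 1.45 without a block, with a median of 0.59. With the BeadChip term it ranged from 0.22 to 1.20, with a median of 0.30.

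**Figure D1:**
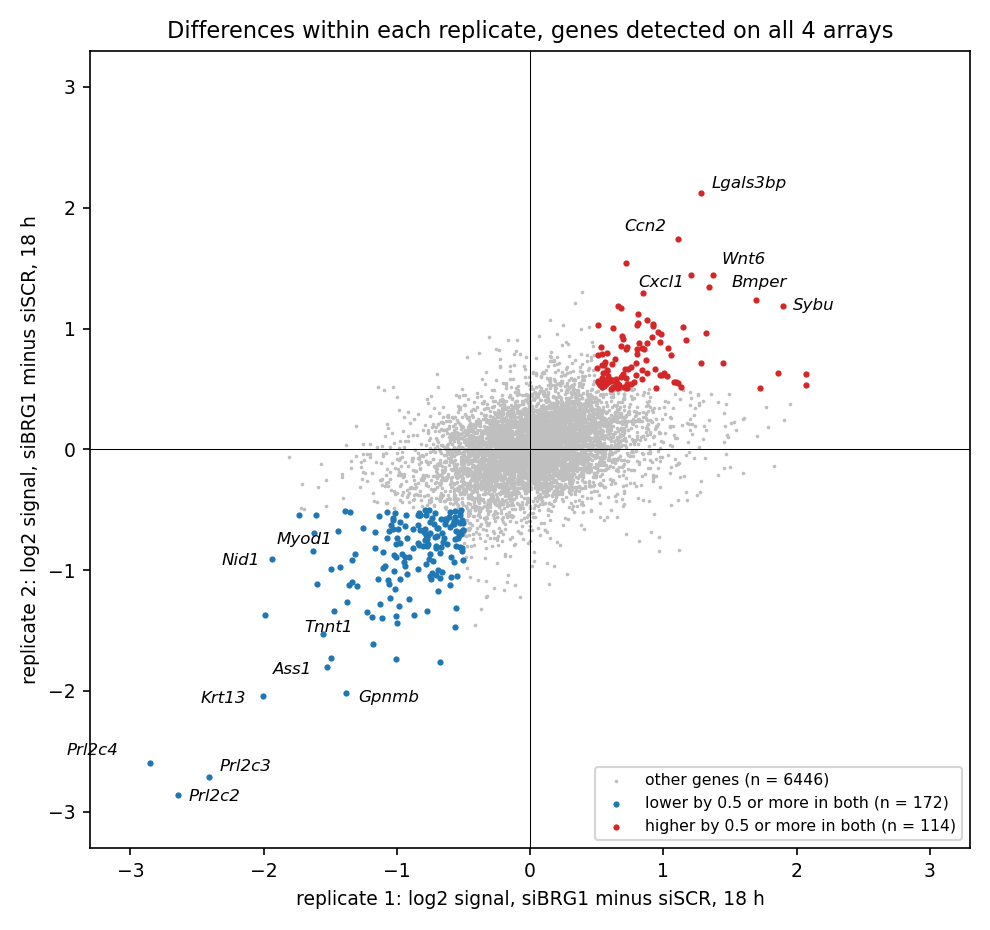
Log2 difference siBRG1 minus siSCR at 18 h in replicate 1 (horizontal) against replicate 2 (vertical), with a point for each of 6732 genes detected on all 4 arrays. The 172 genes lower by 0.5 or more in both are blue and the 114 higher are red; the 3 Prl2c genes lie lowest on both axes.

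Genes were ranked by the smaller of their 2 replicate differences, among those detected on all 4 arrays with the same sign in both. The 3 proliferins had the largest differences in either direction. Proliferins are secreted proteins of the prolactin family, known as products of growing cells. Prl2c2 read 3022 and 3411 with siSCR in replicates 1 and 2, and 484 and 469.8 with siBRG1. Prl2c4 read 4188 and 2648 with siSCR, and 581 and 437 with siBRG1. Prl2c3 read 8543 and 3552 with siSCR, and 1608 and 541 with siBRG1. For each of the 3 genes both siBRG1 arrays lay far below both siSCR arrays. The mean log2 differences were -2.75 ± 0.81 for Prl2c2, -2.73 ± 0.69 for Prl2c4 and -2.56 ± 0.88 for Prl2c3 (SE without a block, n = 2 per group), or 5.91-fold to 6.73-fold lower. With the BeadChip term the SEs were 0.58, 0.54 and 0.49 in that order. These paralogs are near-identical in sequence, so their probes may read shared transcripts and the 3 values may not be separate measurements. Prl2c2 and Prl2c3 both lie on chromosome 13 of GRCm38.p6, at 12996120 to 13005393 and at 12790816 to 12800093. The 250 bases before the RefSeq start of Prl2c3 (GRCm38.p6, chr13:12800080-12800329, minus strand) are shown because this family has the largest differences and this promoter holds the pattern marked. Capitals mark a match to TGANTCA, 209 bases before the start used for this window. That pattern includes the AP-1 site, which has C or G in the middle, but the match here has A. The start used lies inside the gene interval given above, so the window overlaps the end of that interval.
Prl2c3: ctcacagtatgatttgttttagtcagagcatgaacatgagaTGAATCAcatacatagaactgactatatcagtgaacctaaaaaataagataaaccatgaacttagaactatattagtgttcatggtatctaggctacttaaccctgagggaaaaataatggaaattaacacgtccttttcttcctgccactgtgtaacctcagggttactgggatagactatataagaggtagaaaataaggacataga
TGANTCA reads the same on both strands, and 6.75% of 32851 RefSeq promoters of that length hold it. It was found in 14 of the 123 lower genes with a promoter entry (11.4%), 7 of 98 higher genes (7.14%) and 281 of 5516 detected genes (5.09%).

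Beyond the proliferins, the 12 genes that ranked first below siSCR had varied roles. Krt13, an epithelial keratin, read 695 and 475 with siSCR and 173 and 115 with siBRG1. Ass1, argininosuccinate synthase of arginine synthesis, read 1280.2 and 930.4 with siSCR and 445 and 266 with siBRG1. For both genes each siBRG1 array lay below each siSCR array, with folds of 4.07 and 3.17 on the mean log2 scale. Ly6c1, a membrane-anchored Ly6 surface protein, read 812 and 922 against 289 and 278. Gpnmb, a transmembrane glycoprotein, read 487 and 307 against 187 and 75.8. Itgb7, the integrin beta 7 chain, read 857 and 366 against 215 and 141. These 3 genes were also separated between the groups, by 3.06-fold to 3.25-fold. Pkp1, a desmosomal plaque protein, had log2 differences of -1.47 and -1.34, and 6430548M08Rik of -1.55 and -1.53. Another 6430548M08Rik probe differed by -0.25 and -1.58. Klhl30, a member of the Kelch-like family, read 4885 and 1460.4 with siSCR and 1883 and 608 with siBRG1. Klhl30 alone of these 12 genes had levels that overlapped between the groups, since its replicate 1 siBRG1 signal was above its replicate 2 siSCR signal. Tnnt1, the slow skeletal troponin T, completed the 12 genes by this ranking with 20151 and 11766 against 8629 and 4637.

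**Figure D2:**
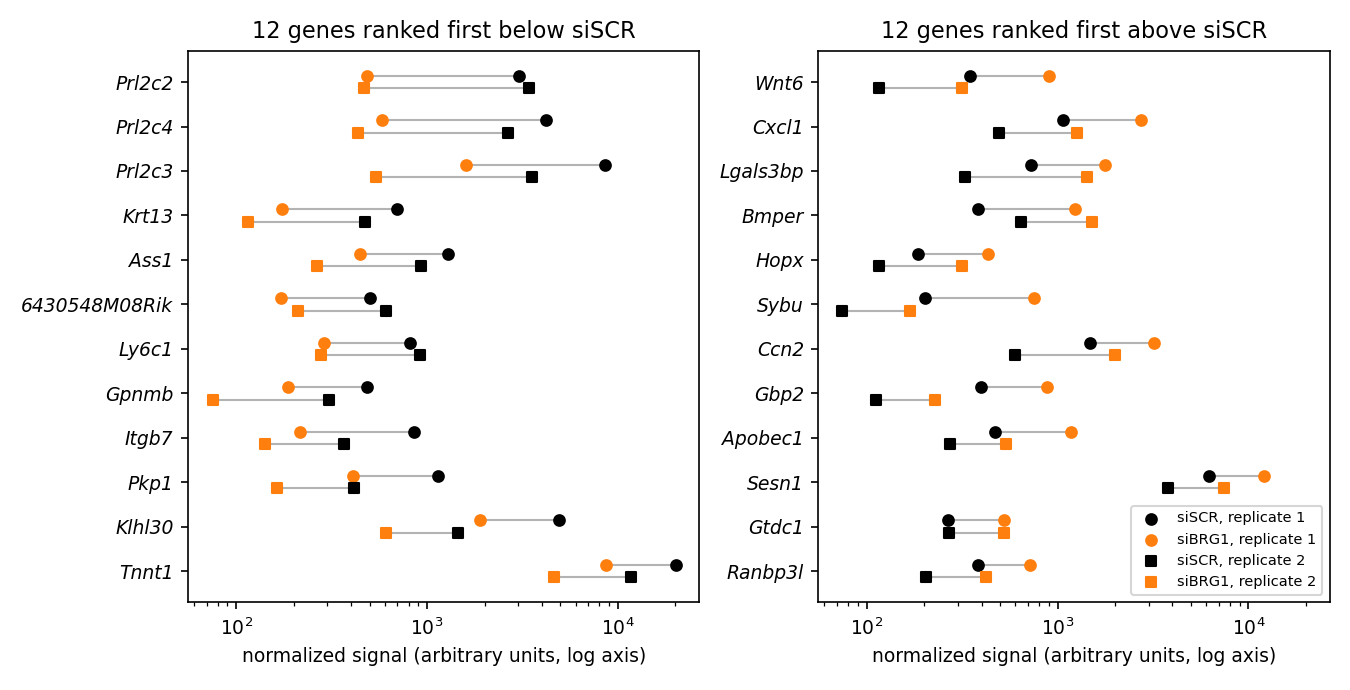
Normalized signal on each of the 4 arrays at 18 h (log axis, arbitrary units) for the 12 genes ranked first below siSCR (left) and above it (right) by the smaller of the 2 replicate differences, with siSCR in black and siBRG1 in orange, replicate 1 as circles and replicate 2 as squares. A grey line joins the 2 arrays of a replicate, and in 11 genes on the left both siBRG1 arrays lie below both siSCR arrays (7.12% of all genes) and in 9 on the right above them (7.1%), in genes picked on these arrays.

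Among the myogenic transcription factors, Myod1 had the largest mean difference. Paired signals below are given as siSCR, then siBRG1. The signal of Myod1 was 421 and 167 in replicate 1, and 1067 and 564 in replicate 2, which are log2 differences of -1.34 and -0.92. The siBRG1 array was the lower of each pair, but the groups overlapped because replicate 2 was brighter. Tead4, a TEA-domain factor that acts with MyoD on muscle genes, read 412 and 242 in replicate 1 and 310.0 and 189 in replicate 2, while another Tead4 probe differed by 0.29 and -0.51. Myog, which encodes myogenin, read 1227 and 978, then 2108 and 903, so its difference was small in replicate 1 (-0.33) and large in replicate 2 (-1.22). Vgll2, a cofactor of TEA-domain factors, differed by -0.48 and -0.47 on its brightest probe, but by 0.32 and 0.05 and by 0.30 and -0.22 on its other 2 detected probes. Mef2c differed by -0.11 and -0.14. Pitx3, a homeodomain factor, was higher by 0.39 and 1.30. Of 25 listed factors 11 were detected on all 4 arrays, 7 of them lower and 2 higher in both replicates against 29.7% and 34% of all genes, with a median of -0.16. On their brightest probes, Myod1 and Tead4 were the 2 that were lower by 0.5 or more in both.

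The contractile genes detected on all 4 arrays were mostly lower with siBRG1. Of 58 sarcomere genes 20 were detected on all 4 arrays, and 16 of these were lower and 2 higher with siBRG1 in both replicates, against 29.7% and 34% of all genes. None was called by limma. A difference of 0.5 or more in both was found below siSCR for 13 and above it for 0, against 2.55% and 1.69% of all genes. The median was -0.79 in replicate 1 and -0.88 in replicate 2, against 0.02 and 0.01 over all genes. Myom2, an M-band protein, read 671 and 221 in replicate 1 and 428 and 198 in replicate 2. Mylpf, the fast regulatory myosin light chain, read 4286 and 2280.2, then 5856 and 2480.5, while another Mylpf probe differed by -0.43 and -1.26. Tnnc1, slow and cardiac troponin C, read 7547 and 4020.2, then 3963 and 2136. Myom2 and Mylpf did not overlap between the groups, while the replicate 1 siBRG1 signal of Tnnc1 was just above its replicate 2 siSCR signal. The sarcomeric actins Acta1 and Actc1 differed by -0.84 and -0.99 and by -0.56 and -1.47. Des, the muscle intermediate filament that myoblasts already make, read 27801 and 25270.3, then 14582 and 14438, with differences of -0.14 and -0.01. In bulk RNA, fewer differentiating cells and less transcript per cell cannot be told apart.

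Genes of calcium handling and muscle energy metabolism had a median of -0.55 over the 14 of 40 that were detected on all 4 arrays, with 11 lower and 1 higher in both replicates, against 29.7% and 34% of all genes. Without background correction the median was -0.35. Ak1, the cytosolic adenylate kinase, read 373 and 164 in replicate 1 and 1957 and 749 in replicate 2. Adssl1, the muscle adenylosuccinate synthase, read 2987 and 1368, then 1572 and 649. Both enzymes belong to purine nucleotide turnover in muscle, and on their brightest probes both were lower by over 1 log2 unit in each replicate. Another Adssl1 probe differed by -0.51 and -1.12. Cacng1, the gamma subunit of the muscle calcium channel, differed by -1.09 and -0.97, and Cox7a1, the muscle form of a cytochrome oxidase subunit, by -0.78 and -0.79. Ckm, muscle creatine kinase, was at background on both replicate 1 arrays, and read 205 and 75.7 in replicate 2. A further 2 listed genes were detected on both siSCR arrays and neither siBRG1 array, against 0.562% of all tested genes.

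Of the fusion, membrane and synapse genes, 21 of 44 were detected on all 4 arrays, with 18 lower and 2 higher in both replicates, against 29.7% and 34% of all genes, and a median of -0.51. Chrng, the fetal gamma subunit of the muscle acetylcholine receptor, read 7582 and 3934 in replicate 1 and 4351 and 2278 in replicate 2. Chrna1, its alpha subunit, read 8767 and 4388, then 16309.7 and 9788, while another Chrna1 probe differed by -0.43 and -0.83. Cdh15, the muscle cadherin, read 8417 and 5159.8, then 8937 and 4343. The siBRG1 array was the lower of every pair for these 3 genes, and the groups overlapped for Chrna1 but not for Chrng or Cdh15. Mymk, which encodes the fusion protein myomaker, differed by -0.51 and -0.84. The 250 bases before the RefSeq starts of Chrng (GRCm38.p6, chr1:87205561-87205810, plus strand), Chrna1 (chr2:73580339-73580588, minus strand) and Mylpf (chr7:127211358-127211607, plus strand) are shown as examples. These muscle genes were lower together, and the promoters shown are ones that hold the motif marked. Capitals mark CAGCTG, an E-box of the kind bound by MyoD and myogenin, which reads the same on both strands.
Chrng: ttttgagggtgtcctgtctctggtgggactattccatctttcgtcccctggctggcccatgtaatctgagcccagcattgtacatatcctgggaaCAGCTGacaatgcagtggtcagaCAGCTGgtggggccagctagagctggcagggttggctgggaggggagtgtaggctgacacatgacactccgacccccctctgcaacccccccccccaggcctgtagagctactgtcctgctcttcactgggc
Chrna1: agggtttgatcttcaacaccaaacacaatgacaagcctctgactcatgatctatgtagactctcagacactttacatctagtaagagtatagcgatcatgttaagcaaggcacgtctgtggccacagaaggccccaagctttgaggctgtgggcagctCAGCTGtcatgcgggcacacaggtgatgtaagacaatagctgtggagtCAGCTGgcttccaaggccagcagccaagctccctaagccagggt
Mylpf: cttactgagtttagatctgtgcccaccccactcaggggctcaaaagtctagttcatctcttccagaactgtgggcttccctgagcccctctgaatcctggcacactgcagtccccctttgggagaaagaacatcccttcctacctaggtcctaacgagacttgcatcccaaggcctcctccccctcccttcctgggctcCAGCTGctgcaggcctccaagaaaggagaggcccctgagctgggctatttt
The matches begin 155 and 132 bases before the start of Chrng, 92 and 44 before that of Chrna1 and 51 before that of Mylpf. CAGCTG was found in 31 of the 123 lower genes with a promoter entry (25.2%) and in 14 of 98 higher genes (14.3%). It was in 726 of 5516 detected genes (13.2%) and in 13.0% of all 32851 promoters of that length. The MEF2 motif, searched on both strands, was found in 2 of the 123 lower genes (1.63%) and 1.70% of detected genes. A match describes letters in this window, not binding.

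**Figure D3:**
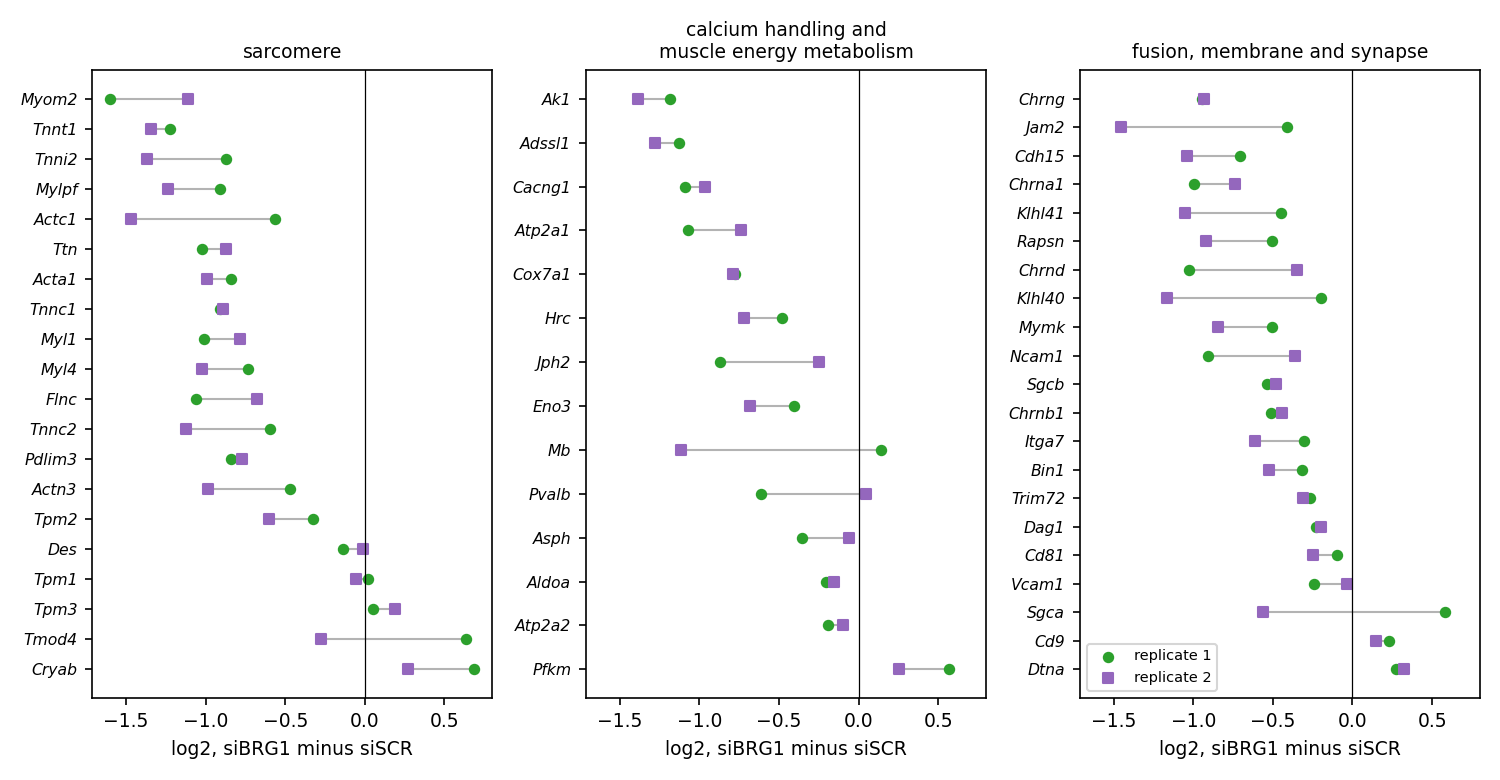
Log2 difference siBRG1 minus siSCR at 18 h in replicate 1 (circles) and replicate 2 (squares) for each member detected on all 4 arrays of the sarcomere list (20 genes), the calcium handling and muscle energy list (14) and the fusion, membrane and synapse list (21). Most members lie left of 0 in both replicates, and Des, Tpm1 and Tpm3 lie close to 0.

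Most extracellular matrix genes detected on all 4 arrays were lower with siBRG1. Of 35 detected on all 4 arrays, among 58 listed, 30 were lower and 4 higher in both replicates, against 29.7% and 34% of all genes. The median was -0.33, with -0.38 in replicate 1 and -0.18 in replicate 2. A difference of 0.5 or more in both replicates was found below siSCR for 7 and above it for 1, against 2.55% and 1.69% of all genes. Nid1, a basement membrane linker, read 2857 and 746 in replicate 1 and 3020.1 and 1612 in replicate 2. Thbs2, a matricellular thrombospondin, read 1254 and 405, then 416 and 232. P4ha2, a prolyl hydroxylase subunit of collagen synthesis, read 1872 and 1071, then 2618 and 1505. Nid1 and P4ha2 were fully separated between the groups, and Thbs2 was separated narrowly. Another Nid1 probe differed by -1.18 and -0.46. Mgp, matrix Gla protein, was the member above siSCR, with 18909.8 and 31304 in replicate 1 and 12822 and 23026 in replicate 2. Among receptors for matrix, Itga3 differed by -0.98 and -1.07 and Itgb5 by 1.13 and 0.52. Ctsl, a lysosomal cysteine protease, differed by -0.94 and -0.96, and Myl9, a smooth muscle myosin light chain, by -0.77 and -0.80. Of the 2 neural markers detected, Stmn2 differed by -0.74 and -1.07 and Nes by -0.93 and -0.54. Of the adipocyte markers, Lpl differed by -0.66 and -1.02 and Pparg by -0.51 and -0.36. The part of other cell types in the muscle and matrix differences was not tested.

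Above siSCR, the 12 genes ranked first included secreted signals and regulators of growth factors. Wnt6, a Wnt ligand, read 349 and 906 in replicate 1 and 116 and 317 in replicate 2. Cxcl1, a neutrophil-attracting chemokine, read 1071 and 2721, then 495 and 1258. Lgals3bp, a secreted galectin-binding glycoprotein, read 729 and 1775, then 329 and 1434. Cxcl1 and Lgals3bp did not overlap between the groups, and Wnt6 did. Bmper, a secreted protein that binds BMPs, read 383 and 1242, then 644 and 1519. Ccn2, a matricellular protein induced by TGF-beta and YAP, read 1488 and 3219, then 596 and 1989. Hopx, a homeodomain protein that does not bind DNA, read 187 and 433, then 116 and 316. These 3 genes were separated between the groups, with folds of 2.77, 2.69 and 2.51. Sesn1, a p53-induced sestrin, read 6241 and 12121, then 3791 and 7424, while another Sesn1 probe differed by 0.27 and 0.76. Sybu, a linker of cargo to kinesin, differed by 1.90 and 1.19, and Apobec1, an RNA-editing cytidine deaminase, by 1.32 and 0.96. Gtdc1 differed by 0.98 and 0.95 and Ranbp3l by 0.92 and 1.04. Of the 12 genes, Wnt6, Sybu and Gbp2 had overlapping groups.

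Genes of antigen presentation and the immunoproteasome were higher, with a median of 0.59 (0.43 in replicate 1, 0.66 in replicate 2) over 9 of 16 listed genes. Of these 9, 8 were higher and 0 lower in both replicates, against 34% and 29.7% of all genes. Without background correction the median was 0.35. Psmb10, an immunoproteasome catalytic subunit, read 1482 and 2717 in replicate 1 and 2032 and 3731 in replicate 2. Psme2, a subunit of the PA28 proteasome activator, read 828 and 2325, then 977 and 1341. H2-T23, a non-classical MHC class I gene, read 1379 and 1952, then 582 and 928. Psmb10 and Psme2 were separated between the groups and H2-T23 was not. Another Psmb10 probe differed by 0.34 and 0.83, and another H2-T23 probe by 0.42 and 0.33. H2-Q7, another class I gene, differed by 0.47 and 0.86. MHC class I genes are near-identical in parts, so these probes may share transcripts.

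Interferon response genes had a median of 0.32 over 15 of 45 listed genes, with 8 higher and 1 lower in both replicates, against 34% and 29.7% of all genes, and 4 higher by 0.5 or more in both, against 1.69%. The median was 0.17 to 0.18 without background correction, with the authors' normalized values, at a detection p under 0.01, with the mean of a gene's probes and without replicate 1. Gbp2, an interferon-induced GTPase, read 396 and 879, then 112 and 227. Irf1, a transcription factor of the interferon response, read 4298 and 6615, then 4436 and 8918. Irf9, the DNA-binding subunit of the ISGF3 complex, read 158 and 271, then 183 and 269. Irf1 and Irf9 were separated between the groups and Gbp2 was not. The chemokines did not share a direction, as Ccl9 differed by -1.06 and -1.12 and Ccl7 by -0.98 and -0.60 while Cxcl1 was higher. Of the 4 leukocyte markers tested, Cd3e was at background on all 4 arrays, and Cd14, the 1 member detected on all 4, differed by 0.45 and -0.30. Csf1r and Aif1 were each detected on 2 of the arrays, and differed by 1.05 and 0.10 and by 0.27 and -0.15. The 250 bases before the RefSeq starts of Gbp2 (GRCm38.p6, chr3:142620413-142620662, plus strand), H2-T23 (chr17:36032702-36032951, minus strand) and Cxcl1 (chr5:90890995-90891244, plus strand) are shown for this group, as examples that hold the motif marked. Capitals mark the core of the interferon-stimulated response element, GAAA then 2 bases of any kind then GAAA on either strand, in Gbp2 and H2-T23, and the NF-kB motif, also searched on both strands, in Cxcl1.
Gbp2: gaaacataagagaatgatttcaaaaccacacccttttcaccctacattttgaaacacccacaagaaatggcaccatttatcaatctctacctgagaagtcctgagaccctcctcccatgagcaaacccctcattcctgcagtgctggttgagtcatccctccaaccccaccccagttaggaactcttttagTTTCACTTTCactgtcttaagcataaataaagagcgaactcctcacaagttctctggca
H2-T23: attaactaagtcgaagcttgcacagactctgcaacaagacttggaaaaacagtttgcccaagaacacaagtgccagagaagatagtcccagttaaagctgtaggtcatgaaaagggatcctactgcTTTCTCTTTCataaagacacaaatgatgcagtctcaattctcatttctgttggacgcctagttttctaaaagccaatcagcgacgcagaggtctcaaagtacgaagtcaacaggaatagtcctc
Cxcl1: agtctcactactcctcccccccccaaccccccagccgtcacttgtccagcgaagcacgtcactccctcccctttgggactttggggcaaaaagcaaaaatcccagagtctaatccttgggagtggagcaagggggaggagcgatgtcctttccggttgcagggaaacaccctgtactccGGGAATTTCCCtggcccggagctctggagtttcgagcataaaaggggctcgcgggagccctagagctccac
This core lies 59 bases before the start of Gbp2 and 124 before that of H2-T23, and 2 overlapping NF-kB matches begin 71 and 70 bases before that of Cxcl1. It was found in 6 of 98 higher genes (6.12%), 6 of 123 lower genes (4.88%) and 3.14% of detected genes. The NF-kB motif was found in 6.12% of higher genes, 7.32% of lower genes and 5.18% of detected genes. Over all 32851 promoters these motifs were found in 2.98% and 3.90%.

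**Figure D4:**
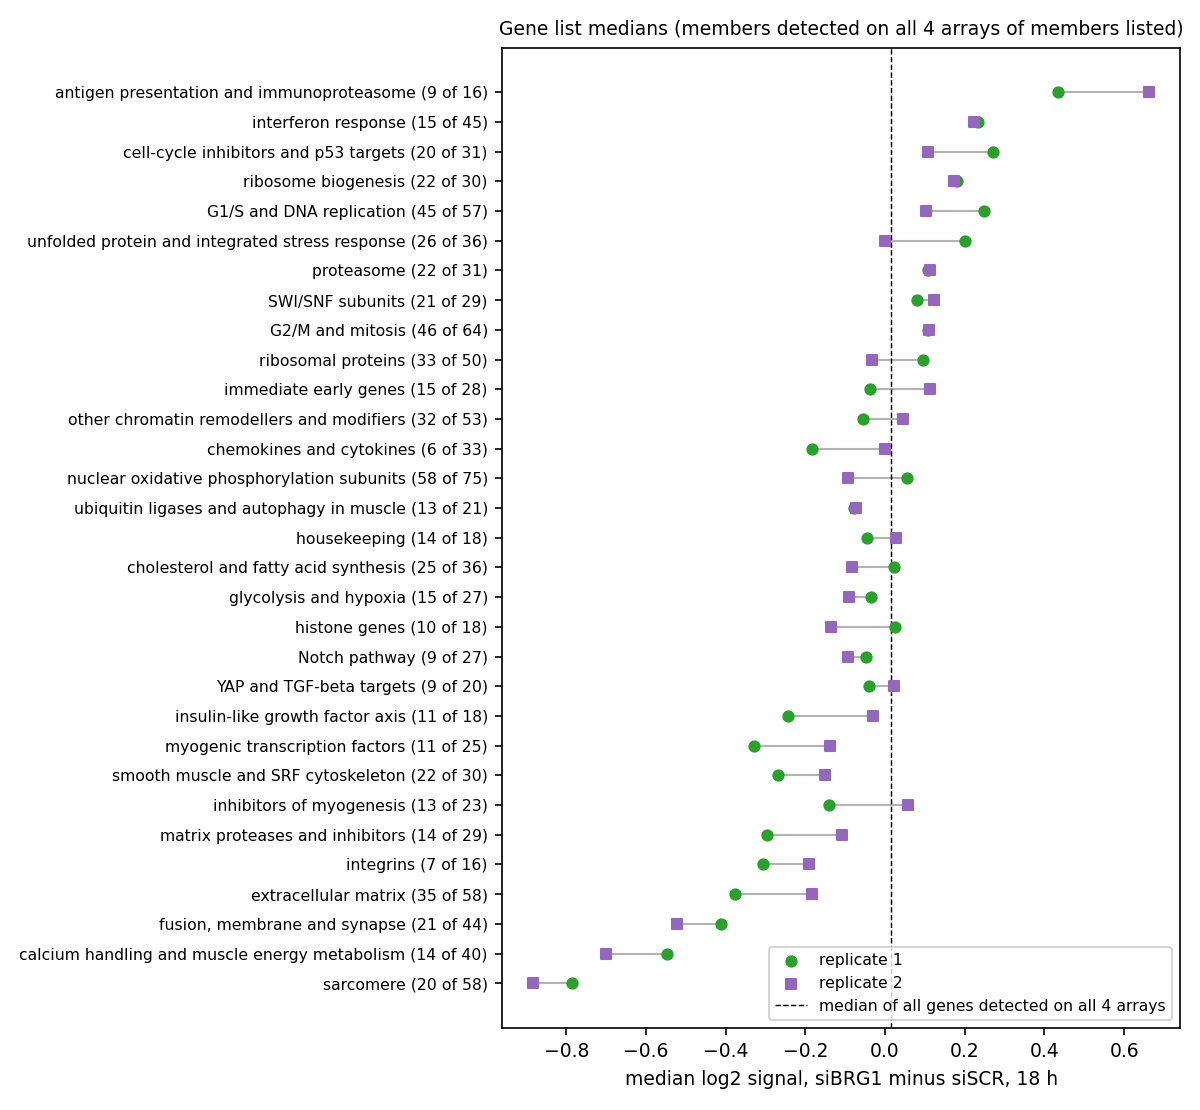
Median log2 difference siBRG1 minus siSCR at 18 h in replicate 1 (circles) and replicate 2 (squares) for each gene list with at least 5 members detected on all 4 arrays, with the number of members used and listed; the dashed line is the median of all genes, 0.02. Sarcomere lies lowest (-0.79 and -0.88) and antigen presentation and immunoproteasome highest (0.43 and 0.66).

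Genes of DNA replication were slightly higher. Of 45 G1/S and replication genes detected on all 4 arrays, 26 were higher and 4 lower in both replicates, against 34% and 29.7% of all genes. The median was 0.19, with 0.25 in replicate 1 and 0.10 in replicate 2. Pold2, a subunit of DNA polymerase delta, read 4486 and 7770.5 in replicate 1 and 2454 and 4022 in replicate 2. Mcm7, a subunit of the replicative helicase, read 1259.7 and 2029.9, then 768 and 1168. They were the 2 members higher by 0.5 or more in both, and both had overlapping groups. Another Mcm7 probe differed by -0.04 and -0.05. Of 46 G2/M genes 22 (47.8%) were higher and 7 (15.2%) lower in both, against 34% and 29.7% of all genes, with a median of 0.06 and none as far as 0.5 in both. Ccnd1 and Ccnd3, D-type cyclins, differed by -0.36 and -0.48 and by -0.16 and -0.34, and Ccnd2 by 0.44 and 0.44. Another Ccnd3 probe differed by 0.20 and 0.45. Cdkn1a, the p21 inhibitor that marks cell-cycle exit, read 24038 and 19511, then 13499 and 9993. Gadd45g, a stress-induced growth inhibitor, differed by -0.69 and -0.65, while the p53 target Phlda3 differed by 0.57 and 0.54. Ribosome biogenesis genes had a median of 0.24, with 16 of 22 higher and 1 lower in both replicates, against 34% and 29.7% of all genes. Polr1c, a subunit of RNA polymerases I and III, differed by 0.72 and 0.59. Of 26 unfolded protein and integrated stress response genes detected on all 4 arrays, 11 were higher and 6 lower in both replicates. The shares over all genes were 34% and 29.7%, and the list medians were 0.20 in replicate 1 and -0.0007 in replicate 2. Its members Chac1 and Trib3 differed by 0.70 and 0.91 and by 0.76 and 0.50. Another Trib3 probe differed by 0.81 and 0.15.

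Notch pathway members went in both directions, with 5 lower and 4 higher in both replicates among 9 detected on all 4 arrays, against 29.7% and 34% of all genes. Hes1, a repressor that Notch induces, read 1226 and 1878 in replicate 1 and 1362 and 2221 in replicate 2. Hey1, a related repressor, read 964 and 626, then 891 and 518. Both genes were separated between the groups, in opposite directions. Dtx4, a Deltex ubiquitin ligase, differed by -1.11 and -1.39, and the receptor Notch3 by -0.48 and -0.89. Among inhibitors of myogenesis, Snai2 differed by 0.39 and 0.54 and Id1 by -0.06 and -0.64.

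The other SWI/SNF genes had a median difference near 0, with larger differences for some members. Of 21 subunit genes detected on all 4 arrays 11 were higher and 3 lower in both replicates against 34% and 29.7% of all genes, the median was 0.07, and 0 were 0.5 or more apart in both. Arid1a, the large subunit of the canonical BAF complex, differed by 1.20 and 0.48 and Pbrm1, a PBAF subunit, by -0.47 and -0.21 (0.19 and -0.05 on another probe). Smarcc2 differed by -0.96 and -0.03 and Bicral by 0.29 and 0.77. Smarcd3, the BAF60c subunit known to act with MyoD, was at background on the replicate 1 siBRG1 array and differed by -0.62 in replicate 2. The nuclear oxidative phosphorylation list had a median of -0.02 over 58 genes and the housekeeping list -0.02 over 14. Gapdh differed by 0.04 and 0.03 and Actb by -0.05 and 0.17 on its brightest probe. Other Actb probes differed by -1.20 and 0.20, by -0.33 and 0.26 and by -0.21 and 0.02.

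Detection itself separated the groups for a small number of genes. Of 10847 tested genes, 61 (0.562%) were detected on both siSCR arrays and neither siBRG1 array, and 23 (0.212%) the reverse. The siBRG1 array detected fewer of all probes in each replicate: 27.33% against 29.72% in replicate 1 and 38.17% against 38.31% in replicate 2. The part of that in the 2 counts was not tested. Such genes have only a bound, taken against the lowest detected signal of the siBRG1 or siSCR arrays or the gene's own signal there, whichever is higher. With siBRG1, Calr3 was at least 2.29-fold lower, Ugt1a6b at least 2.07-fold, Xpnpep2 at least 2.05-fold, Htra3 at least 1.82-fold and Clca2 at least 1.79-fold. Htra3, a secreted serine protease, read 271 and 141 with siSCR. In the other direction, Fjx1 was at least 2.33-fold higher with siBRG1, Arhgap19 at least 1.97-fold, Dock9 at least 1.83-fold, Piwil1 at least 1.81-fold and Xkr7 at least 1.77-fold. Fjx1 read 243 and 201 with siBRG1, while Dock9 and Piwil1 read 84.4 and 73.9 in replicate 2, near the detection limit.

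At 48 h the same siRNAs were measured on 4 other arrays, of which the replicate 2 pair lay on the BeadChip of replicate 2 at 18 h. Of the 172 genes lower at 18 h, 119 (69.2%) were lower with siBRG1 in both replicates at 48 h and 13 (7.56%) higher, against 22% and 32.7% of the 6732 genes. Of the 114 genes higher at 18 h, 80 (70.2%) were higher at 48 h in both replicates and 8 (7.02%) lower. The median difference at 48 h was -0.46 and -0.50 in the 2 replicates for the first set, and 0.69 and 0.51 for the second. No gene's siBRG1 difference between the times passed limma's test (0 of 10847 genes; 61 at an unadjusted p under 0.05, and 477 with the BeadChip term). Among single genes, Gbp2 was higher by 3.19 and 2.24 at 48 h and Ccn2 by 2.34 and 3.49. Fjx1 was higher by 3.09 and 3.05 at 48 h. Prl2c2 differed by -2.70 and -0.88 at 48 h, and Krt13 by -0.17 and -0.06. Sarcomere genes had medians of -0.56 and -0.86, and antigen presentation genes of 0.75 and 0.63.

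The siBRM samples at 18 h were compared with the same siSCR arrays, so the 2 knockdowns share their controls and their values are only set side by side. With siBRM the 172 lower genes had medians of -0.06 and -0.06 in the 2 replicates, and the 114 higher genes 0.14 and 0.06. Prl2c2 differed by -0.59 and 0.88 with siBRM, Ass1 by 0.61 and 0.22, Myod1 by -0.11 and -0.13 and Cxcl1 by 0.37 and 0.03. Hopx, higher with siBRG1, differed by -1.83 and -0.14 with siBRM, while Dtx4 differed by -2.22 and -0.20. The direct comparison of siBRG1 with siBRM at 18 h, from which siSCR drops out, called 0 of 10847 genes (147 at an unadjusted p under 0.05; 736 with the BeadChip term, where the smallest adjusted p was 0.231). In siBRM cells, measured on arrays outside the siBRG1 comparison, 81 of the 172 lower genes (47.1%) were higher and 59 (34.3%) lower at 48 h than at 18 h in both replicates, against 27.4% and 37.3% of all genes. For the 114 higher genes, 52 (45.6%) were lower and 28 (24.6%) higher at 48 h than at 18 h in siBRM cells, against 37.3% and 27.4%. In replicate 1 the siBRM arrays of the 2 times lay on different BeadChips, so time and BeadChip cannot be told apart there.

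**Figure D5:**
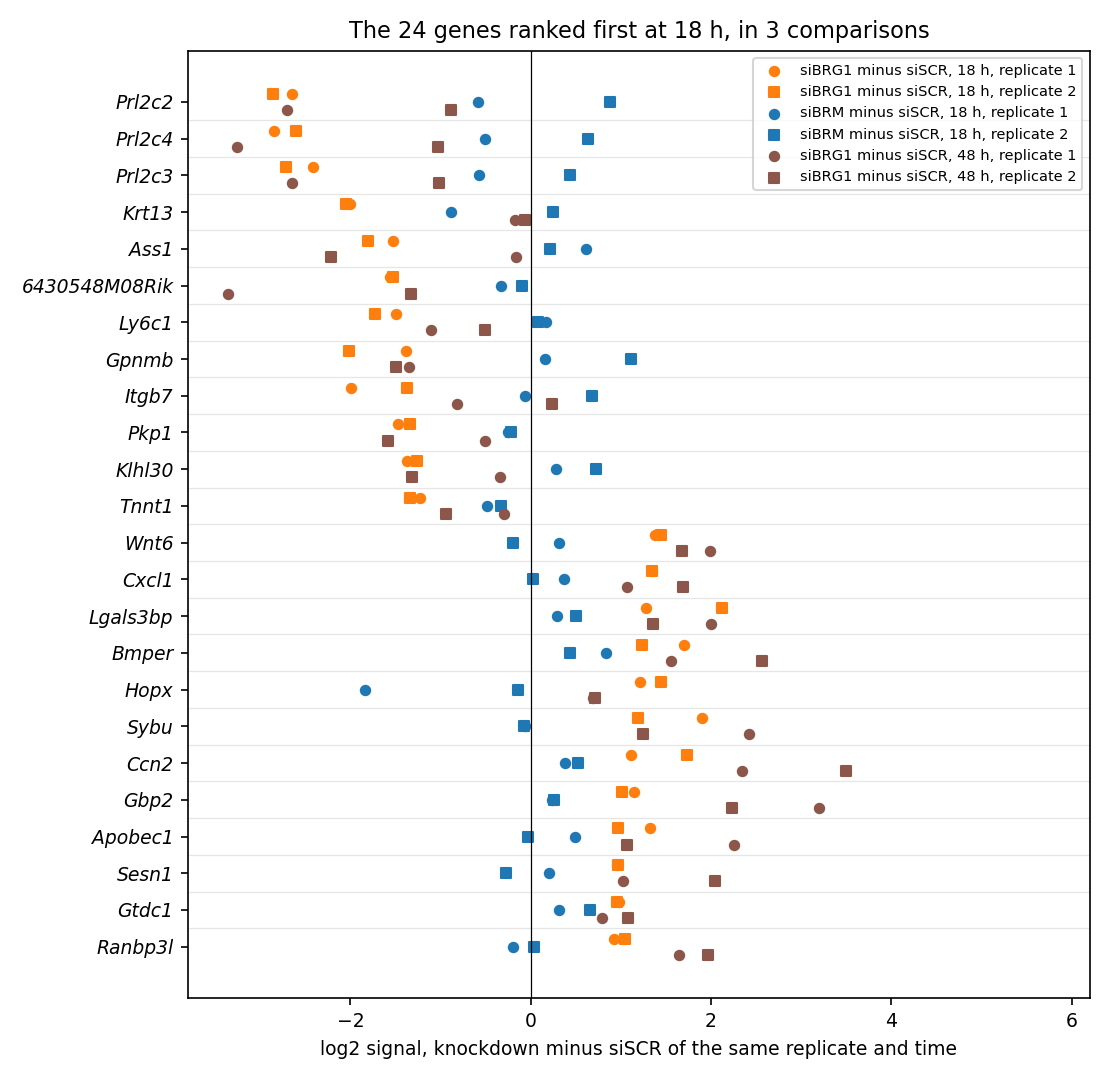
Log2 difference from siSCR of the same replicate and time for the 24 genes ranked first at 18 h, 12 in each direction: siBRG1 at 18 h (orange), siBRM at 18 h (blue) and siBRG1 at 48 h (brown), replicate 1 as circles and replicate 2 as squares. The 12 upper genes were chosen as lowest and the 12 lower genes as highest with siBRG1 at 18 h, and the 18 h comparisons share their siSCR arrays.

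The 0.5 limit has no natural gap around it. Sh3bp2 (-0.52 and -0.50) and Lama5 (-0.79 and -0.50) lay just inside it, and Fblim1 (-0.50 and -0.69) and Aebp1 (-0.50 and -0.71) just outside. Above siSCR, H2-T23 and 2310033P09Rik (0.61 and 0.50) were just inside, and Cpne2 (0.78 and 0.50) and Dusp28 (0.68 and 0.50) just outside.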

How the data were processed

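Transcripts of 12 C2C12 samples in 6 groups of 2 were measured on Illumina mouse BeadChips, and the 4 arrays of siBRG1 and siSCR at 18 h were compared here. The deposited intensities are bead-averaged fluorescence signals per probe, not normalized as far as the values show. The deposited detection p-values compare a probe with the negative controls of its array. Per the file headers, the table also holds as other units bead numbers and bead standard errors, not used here. A second deposited table holds the authors' normalized intensities, used as an alternative. The submitters' processing notes name GenomeStudio 2009.1, and what else was done is not given in the sources used here.

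Signals were background-corrected by normexp with an offset of 16, with the background taken from the detection p-values, then quantile normalized and put on the log2 scale. R 4.3.3 was used with limma 3.58.1 and statmod 1.5.0. Of 45281 probes, 34885 had 1 gene symbol, 18 several and 10378 none in the platform annotation. Testing required a detection p under 0.05 on 2 or more arrays. It covered 20415 probes of 10847 genes, and where a gene had several such probes (4219 genes) the brightest stood for it. The limma model held the 6 group means (6 residual degrees of freedom), with two-sided moderated tests and Benjamini-Hochberg adjustment over tested probes, and an adjusted p under 0.05 was a call. Only its mean estimates were checked on simulated data, with less spread than these data have. That check does not show which differences 2 arrays per group could detect. The number of arrays limits the precision. Alternatives changed the background correction, scaling, detection limit, probe choice, size limit and block, used the authors' values, or left out a replicate.

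Replicate 1 at 18 h, replicate 1 at 48 h and replicate 2 each lay on a BeadChip of their own. Samples with the same number deviated together from their group means: r was 0.449 to 0.825 in the 15 pairs of groups and 0.793 for siBRG1 with siSCR at 18 h. The replicate numbers therefore pair the samples. Fits with the BeadChip as a fixed term had 4 residual degrees of freedom, and with the replicate 5.

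Genes were named by rule: the siRNA targets, the 12 each way that ranked first by the smaller of the 2 replicate differences, among genes with the same sign in both, 5 bounds each way, up to 4 members of each of 37 lists by the same ranking, and a fixed set of myogenic and control genes. Markers named in addition, and the genes in the first paragraph of the other observations, were picked once their values were known. The members, lists and rules were all chosen with earlier results of these data known. Promoters are RefSeq sequences of GRCm38.p6, matched by gene ID, and were found for 123 of the 172 lower and 98 of the 114 higher genes.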

Additional observations from a re-analysis of the deposited data

Results flagged for a closer look

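Of the 169 genes named by rule, not all of which are described above, 145 were detected on all 4 arrays at both times. Of these, 17 (11.7%) differed from siSCR one way in both replicates at 18 h and the opposite way in both at 48 h. That share was close to the 10.7% found among all 6586 genes so detected. Each of the 17 is given as the mean log2 difference at 18 h and then at 48 h. Lower at 18 h and higher at 48 h were Vegfa, an angiogenic factor (-1.07 and 0.66), Fhl2 (-0.52 and 0.38), Me1 (-0.44 and 0.45), Slc2a1 (-0.35 and 0.44), Junb (-0.35 and 0.48), the protease Mmp14 (-0.34 and 0.52), its inhibitor Timp3 (-0.32 and 0.77), Sox9 (-0.31 and 0.38) and Nuak2 (-0.28 and 0.94). At 18 h another Vegfa probe differed by only -0.08 in replicate 1 and by -0.56 in replicate 2, and another probe of Grwd1, given below, by 0.28 and 0.02. Higher at 18 h and lower at 48 h were Cnn2 (1.30 and -0.33), Grwd1 (0.78 and -0.29), the arginine methyltransferase Prmt5 (0.51 and -0.53), Nfkbia (0.45 and -0.09), Dhcr7 (0.45 and -0.50), Rrp12 (0.25 and -0.45), Becn1 (0.23 and -0.85) and Gapdh (0.0353 and -0.18). None of these differences between the times passed limma's test: the adjusted p was 1 without a block and 0.918 to 0.949 with the BeadChip term. Times also differ by BeadChip in replicate 1, so time and BeadChip cannot be told apart there.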

How the results depend on the processing

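limma called 0 genes under each alternative run for the comparison of siBRG1 with siSCR, the comparison with siBRM and the difference between the times. With the replicate number as a block, which pairs the arrays, 0 genes were called for siBRG1 against siSCR (570 at an unadjusted p under 0.05, smallest adjusted p 0.870), and the block changed no call. Leaving out 1 array gave 31 to 385 genes at an unadjusted p under 0.05, with the lone array of a group assumed to vary like the others; the same with the BeadChip term, chosen after the data were seen, gave 133 to 1212 (smallest adjusted p 0.117). Without background correction, 98 genes were lower and 48 higher by 0.5 or more in both replicates, with the medians at -0.79 for sarcomere, -0.35 for calcium handling, -0.43 for fusion, 0.17 for interferon response and 0.35 for antigen presentation. The authors' normalized values gave 97 and 48 genes, and medians of -0.79, -0.35, -0.43, 0.17 and 0.35 in that order. Median scaling gave 211 lower and 82 higher genes, and medians of -0.96 for sarcomere, -0.62 for fusion and 0.36 for interferon response. The interferon median was 0.34 with quantile normalization over the 4 arrays, 0.35 within each BeadChip, 0.18 at a detection p under 0.01 and 0.17 with the mean of the tested probes, where sarcomere was -0.77. Over all tested genes, 355 were lower and 205 higher, with medians of -0.77 for sarcomere, -0.36 for fusion and 0.39 for interferon response. A size limit of 0.3 gave 460 lower and 417 higher genes, and a limit of 1 gave 28 and 8. With only 1 replicate, 557 to 724 genes were lower, 416 to 820 higher, 365 to 905 detected with siSCR alone and 295 to 445 with siBRG1 alone. The medians then ranged from -0.79 to -0.89 for sarcomere, from 0.10 to 0.25 for G1/S and replication, from -0.55 to -0.68 for calcium handling, from -0.40 to -0.41 for fusion, from 0.18 to 0.42 for interferon response and from -0.18 to -0.38 for extracellular matrix. The cause of these shifts was not tested. In settings that kept both replicates, 13 of 247 list medians and 13 of 1183 gene values changed sign, and 0 of 168 for the 24 genes ranked first. Signal near background limits the dim genes, since 6732 of 10847 tested genes were detected on all 4 arrays.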

Other observations

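Several genes outside the naming rule, chosen after their values were seen, have related roles. Gch1 and Pts, which catalyse the opening steps of tetrahydrobiopterin synthesis, were both lower with siBRG1 at 18 h. Gch1 read 1067 and 541 in replicate 1 and 1046 and 426 in replicate 2, with siSCR first, and Pts read 893 and 606, then 1205 and 797. Both were separated between the groups. Ligands were found on either side of siSCR. Pdgfb, a platelet-derived growth factor, read 1034 and 403, then 379 and 174, and Angpt2, an angiopoietin, 1081 and 477, then 608 and 199. Hgf, the ligand of the Met receptor, differed by -1.07 and -1.08, Wnt7b by -0.56 and -1.32 and the chemokine receptor Cxcr4 by -0.75 and -1.05. Higher were Bdnf, a neurotrophin, with 765 and 1373, then 461 and 728, and Artn, a ligand of the GDNF family, with differences of 2.07 and 0.62. Wnt10a differed by 0.56 and 0.72 and Sema7a by 0.81 and 1.12. Ppp3ca, a catalytic subunit of calcineurin, read 4907 and 2974, then 5356 and 3496, and its substrate Nfatc1 differed by -0.88 and -0.82. Slc6a8, the creatine transporter, differed by -0.50 and -0.67. Some of these genes also differed with siBRM at 18 h, against the same siSCR arrays. Nfatc1 differed by -0.58 and -0.70 with siBRM, Ppp3ca by -0.67 and -0.23 and Bdnf by 0.66 and 0.50. In contrast, Pdgfb differed by 0.02 and 0.26 with siBRM and Cxcr4 by 0.44 and 0.48. None of these genes was called by limma.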
